A study of Mus musculus with 12 samples.

Results

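Periportal and urea cycle genes were followed across livers with graded Nrf2 activity. The genes were chosen by symbol: Cps1, Otc, Ass1, Asl, Arg1, Gls2, Hal, Sds, Cyp2f2 and Pck1. Of these 10 genes, 8 were measured by 11 probe sets that carry the gene's symbol alone, out of 8554 such probe sets among 9622 in the deposited table, and 5856 genes were tested in all. Gls2 and Sds were not analysed here. Liver mRNA came from male mice on a C57BL/6 background, aged 8 weeks, that received no treatment and ate the same rodent chow, with 3 mice per genotype and 1 array per mouse on Affymetrix Mouse 430 2.0 arrays. Nrf2-null mice lack Nrf2, and wild-type mice were C57BL/6. Keap1-KD mice carry a loxP-engineered Keap1 that is decreased in the whole body. Keap1-HKO mice are Keap1-KD mice crossed with AlbCre+ mice, whose albumin-driven Cre is active in hepatocytes, so they carry the body-wide decrease as well as the hepatocyte deletion. A group with AlbCre alone was not analysed here. Nrf2 activity increases from Nrf2-null through wild-type and then Keap1-KD to Keap1-HKO mice, the order used for the slopes.

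Blood enters the liver lobule at the portal triad and leaves at the central vein, and hepatocytes along this path differ in what they make. Periportal hepatocytes, which receive the most oxygen, hold most of the urea cycle, of the catabolism of amino acids such as histidine and serine, and of gluconeogenesis. In the urea cycle, carbamoyl phosphate synthetase (Cps1) and ornithine transcarbamylase (Otc) work in the mitochondrion, and argininosuccinate synthetase (Ass1), argininosuccinate lyase (Asl) and arginase (Arg1) work in the cytosol. Keap1 holds the transcription factor Nrf2 in the cytosol for degradation, and Nrf2 freed from Keap1 binds antioxidant response elements and induces cytoprotective enzymes such as Nqo1. The question asked of the genes was whether the periportal program follows Nrf2 activity.

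The arrays followed their labels. The log2 intensity of Nfe2l2, which encodes Nrf2, was 8.81, 8.94 and 8.93 in wild-type mice and 2.46, 2.29 and 2.29 in Nrf2-null mice, at or near the lowest value of the table, 2.29, so the fold is not exact. In Keap1-HKO mice Nfe2l2 mRNA measured 8.11, 7.93 and 8.54, lower than in wild-type mice (limma, log2 difference −0.702, adjusted p = 0.048). Keap1 measured 7.97, 7.80 and 7.81 in wild-type mice, 5.92, 5.59 and 5.59 in Keap1-KD mice and 3.34, 3.39 and 3.34 in Keap1-HKO mice. The values of both Keap1 mutants, and those of Nfe2l2 in Nrf2-null mice, lay under the study's intensity limit of 100, which is 6.64 on the log2 scale. The first replicates of Keap1-HKO and of Nrf2-null mice lay farthest from the rest of their groups, at a mean distance of 0.601 and 0.387 (log2), while the other 10 arrays had 0.098 to 0.374. Control probe sets read the 3 prime and 5 prime ends of Gapdh and Actb. On Keap1-HKO replicate 1 the 3 prime minus 5 prime log2 values were lowest, at 0.192 and 2.03. Elsewhere they were 0.529 to 0.931 for Gapdh and 2.36 to 2.91 for Actb, and their part in the results was not tested. Of 13 pancreas acinar markers 10 were measured: their median log2 intensity was 14.07 for replicate 2 and 11.04 for replicate 3 of Keap1-HKO, and 2.29 to 2.44 elsewhere. Of 11 skeletal muscle markers 8 were measured, and their median was 11.54 and 10.01 in these 2 mice and 10.83 in the second wild-type mouse, but 2.31 to 3.00 in the remaining 9. The median of 6 measured hepatocyte markers lay between 15.42 and 16.06 on all arrays, and it was lowest on Keap1-HKO replicate 2. These markers differed among themselves in Keap1-HKO against wild-type mice: Fgb was called (log2 difference −0.46, adjusted p = 0.0497), Alb and Ttr lay at 0.015 and 0.024, and Ahsg, Apoa1 and Apob lay at −0.24, −0.38 and −1.17 (adjusted p = 0.187 to 0.451 for these last genes). Of 6 measured macrophage, 3 endothelial and 3 stellate cell markers, 0 were called in Keap1-HKO against wild-type mice (limma, with 1, 0 and 2 at an unadjusted p under 0.05), and their median log2 differences were −0.20, −0.052 and −1.07. The part of these transcripts in the results was not tested. Fits without the 3 arrays with pancreas or muscle transcripts keep Keap1-HKO replicate 1, the array farthest from its group, as the only one of its genotype, and take its spread from the other genotypes. They called far more of all genes than the full fit in Keap1-HKO against wild-type mice, against Nrf2-null mice and for the slope. Their values are therefore given for comparison, and a call gained in them is not read as a result. The totals and counts on the dependence on processing, given at the end, include these fits.

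Against wild-type mice, none of the 8 measured genes passed the test in any genotype. The test was limma's moderated test on log2 intensities with p adjusted over the 5856 genes, and the threshold for a call was an adjusted p of 0.05. In Nrf2-null mice 0 of 8 genes were called, against 0.41% of all genes (1 of 8 at an unadjusted p under 0.05, against 6.92%, and 0 by Duncan's multiple range test without adjustment, against 5.4%). In Keap1-KD mice 0 of 8 were called, against 0.0683% of all genes (0 at an unadjusted p under 0.05, against 2.54%, and 0 by Duncan's test, against 2.25%). In Keap1-HKO mice 0 of 8 were called, against 3.94% of all genes (3 at an unadjusted p under 0.05, against 18.6%, and 2 by Duncan's test, against 12%). The 2 by Duncan's test were Cps1, which was lower, and Cyp2f2, which was higher. Across the whole order, from Nrf2-null to Keap1-HKO, 1 of 8 genes followed a linear trend, against 9.2% of all genes: Cyp2f2, which rose (2 at an unadjusted p under 0.05, against 22%). The other gene at an unadjusted p under 0.05 was Cps1, whose slope was negative. It was −0.126 on the log2 scale per genotype step (standard error 0.0385, adjusted p = 0.0731) and missed the threshold. In the same fit 6 of 8 measured Nrf2 targets rose in Keap1-HKO against wild-type mice, against 2.1% of all genes. Among them Srxn1 rose by 3.05, Gstm1 by 2.60 and Txnrd1 by 1.74 on the log2 scale (adjusted p = 1.35e-06, 0.00153 and 1.79e-05). Nqo1 rose from wild-type values of 4.77, 4.50 and 4.87, under the limit, to 10.41, 9.56 and 9.99, a log2 difference of at least 3.35 with values set no lower than an intensity of 100 (adjusted p = 1.66e-05).

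**Figure D1:**
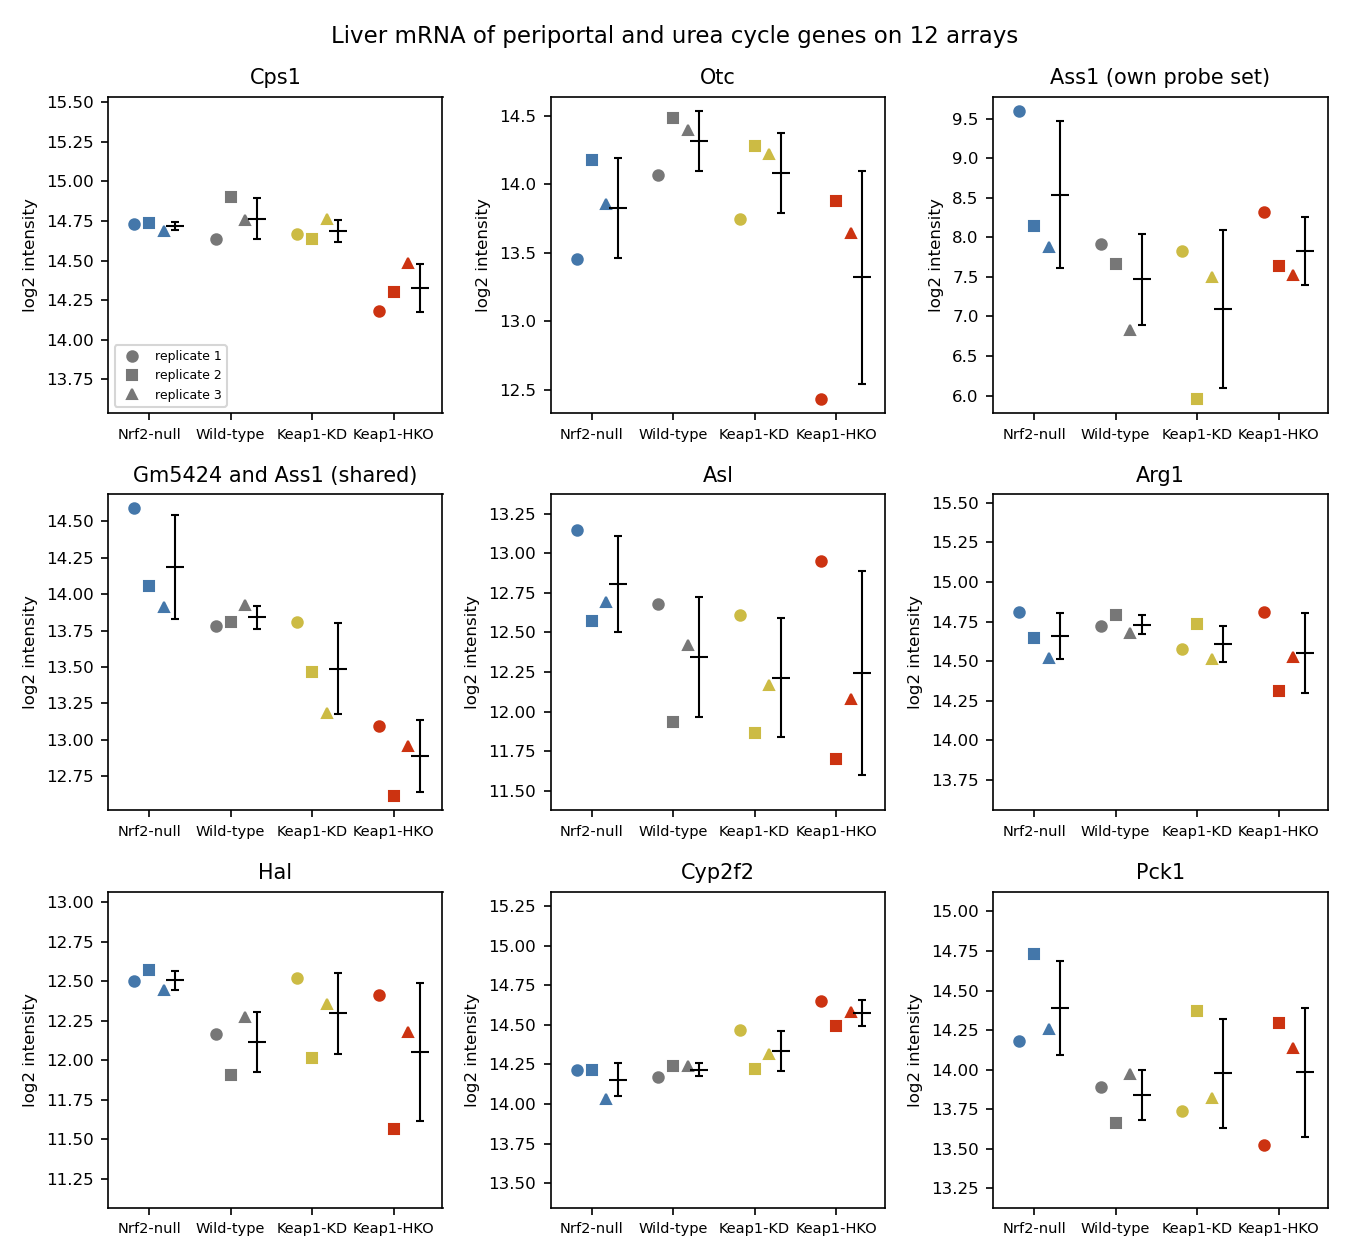
Log2 intensity (y axis) of 8 periportal and urea cycle genes, and of the probe set that lists Gm5424 and Ass1, on each of the 12 arrays by genotype (x axis); circles, squares and triangles are replicates 1, 2 and 3, and bars are mean and SD. On the 3 Keap1-HKO arrays Cyp2f2 lies above all other arrays, and Cps1 and the shared Ass1 probe set lie below them.

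Among the urea cycle enzymes of the mitochondrion, Cps1, which fixes ammonia as carbamoyl phosphate, had less spread than Otc. The gene lies at chr1:67122426-67231267 (GRCm38.p6, the RefSeq build of all positions given here). Its log2 intensities on replicates 1 to 3 were 14.73, 14.74 and 14.69 in Nrf2-null mice, 14.64, 14.90 and 14.76 in wild-type mice, 14.67, 14.63 and 14.76 in Keap1-KD mice and 14.18, 14.30 and 14.48 in Keap1-HKO mice. All 3 Keap1-HKO arrays lay below every array of the other genotypes, which overlapped with each other. Cps1 mRNA of Keap1-HKO mice stood at −26.3% ± 4.52 (SEM, n = 3) relative to the wild-type mean, a log2 difference of −0.44 (standard error 0.12, 95% interval −0.71 to −0.17, adjusted p = 0.0827), which missed the threshold. Duncan's test, without adjustment over genes, called this difference. Without the 3 arrays with pancreas or muscle transcripts the difference was −0.51. In Nrf2-null and Keap1-KD mice the log2 differences were −0.048 (95% interval −0.32 to 0.22, adjusted p = 0.897) and −0.078 (95% interval −0.35 to 0.19, adjusted p = 1). In the comparison of Keap1-HKO with wild-type mice, the median log2 difference of the 6 hepatocyte markers was −0.31, with Alb and Ttr above 0, against −0.014 over all genes. In bulk liver, fewer hepatocytes and less Cps1 mRNA per hepatocyte cannot be told apart. Replicates of a genotype had an SD of 0.107 (log2), at percentile 4.51 of all genes, where the median gene had 0.291.

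Otc (chrX:10252230-10321024), which joins carbamoyl phosphate to ornithine to make citrulline, varied more. Its brightest probe set measured 13.45, 14.18 and 13.86 in Nrf2-null mice, 14.07, 14.49 and 14.40 in wild-type mice, 13.75, 14.28 and 14.22 in Keap1-KD mice and 12.44, 13.88 and 13.65 in Keap1-HKO mice (log2 intensity). The 3 Keap1-HKO arrays lay below the 3 wild-type arrays but overlapped with Nrf2-null arrays, and replicate 1 was the lowest in each genotype. Otc mRNA of Keap1-HKO mice stood at −45.8% ± 14.0 (SEM, n = 3) relative to the wild-type mean, a log2 difference of −0.995 (standard error 0.35, 95% interval −1.77 to −0.22, adjusted p = 0.165). Without Keap1-HKO replicate 1 that difference was −0.55 (adjusted p = 0.278), and without the 3 arrays with pancreas or muscle transcripts it was −1.79. In Nrf2-null mice the difference was −0.49 (95% interval −1.27 to 0.29, adjusted p = 0.823). In Keap1-KD mice it was −0.233 (95% interval −1.01 to 0.545), so the mean of every mutant genotype lay below wild-type. A further Otc probe set had a log2 difference of −0.85 (adjusted p = 0.114) in Keap1-HKO mice, with all 3 arrays below the wild-type arrays, and the dimmest, whose wild-type mean intensity of 135 was near the study's limit of 100, had −0.46 (adjusted p = 0.458).

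Ass1 (chr2:31470270-31520670), which joins citrulline to aspartate, is read by a pair of probe sets that differ from each other. The probe set that names Ass1 alone was dim, with a wild-type mean intensity of 186, and its SD within genotypes of 0.768 lay at percentile 90.4 of all genes. It measured 9.60, 8.15 and 7.88 in Nrf2-null mice, 7.92, 7.66 and 6.82 in wild-type mice, 7.82, 5.96 and 7.50 in Keap1-KD mice and 8.32, 7.64 and 7.52 in Keap1-HKO mice (log2 intensity). These groups overlapped, and the log2 difference from wild-type mice was 1.07 in Nrf2-null mice (95% interval −0.18 to 2.33, adjusted p = 0.823) and 0.36 in Keap1-HKO mice (95% interval −0.89 to 1.61, adjusted p = 0.698).

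The other Ass1 probe set also lists Gm5424, which RefSeq gives as a pseudogene on chromosome 10, so its signal may come from either and it stood outside the rule; it was added after its values were seen. It measured 14.59, 14.05 and 13.91 in Nrf2-null mice, 13.78, 13.81 and 13.93 in wild-type mice, 13.81, 13.47 and 13.18 in Keap1-KD mice and 13.09, 12.61 and 12.96 in Keap1-HKO mice (log2 intensity). The means stepped down in each genotype, and the 3 Keap1-HKO arrays lay below all other arrays. Relative to wild-type mice, its signal differed by 29.6% ± 19.4 in Nrf2-null mice, −20.6% ± 10.02 in Keap1-KD mice and −47.8% ± 4.99 in Keap1-HKO mice (SEM, n = 3). Tested among the 8918 probe sets with a symbol, it fell along the order by 0.42 on the log2 scale per genotype step (slope −0.42, standard error 0.069, adjusted p = 0.00364, against 9.99% of probe sets called). It was lower in Keap1-HKO than in wild-type mice by a log2 difference of −0.95 (standard error 0.22, adjusted p = 0.0374, against 4.31% of probe sets called) and lower than in Nrf2-null mice by −1.30 (standard error 0.22, adjusted p = 0.00471). The differences in Nrf2-null mice (0.35, adjusted p = 0.835) and in Keap1-KD mice (−0.35, adjusted p = 1) did not pass the test. The slope was called with each array left out in turn (adjusted p = 0.00353 to 0.0123), whereas the call against wild-type mice ended without Nrf2-null replicate 2, without any 1 of the wild-type arrays, without Keap1-KD replicate 2, and without Keap1-HKO replicate 2 or 3 (adjusted p = 0.057 to 0.141). Leaving out the 3 arrays with pancreas or muscle transcripts gave a slope of −0.36 and a difference from wild-type mice of −0.76 (adjusted p = 0.106).

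The 250 bases before the RefSeq start of Ass1 (GRCm38.p6, chr2:31470020-31470269, plus strand) are shown, since Ass1 is a gene that the descending probe set lists beside Gm5424. The window of 300 bases from 250 before to 50 after the start is 74% G and C, against a median of 52.7% over all such windows, and holds no match to the antioxidant response element core TGACNNNGC on either strand.
Ass1 promoter: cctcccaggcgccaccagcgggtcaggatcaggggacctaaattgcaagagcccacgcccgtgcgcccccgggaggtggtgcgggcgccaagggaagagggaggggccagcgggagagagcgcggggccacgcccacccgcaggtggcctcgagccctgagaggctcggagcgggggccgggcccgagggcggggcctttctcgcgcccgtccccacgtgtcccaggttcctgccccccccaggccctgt

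Asl (chr5:130011258-130024381), which splits argininosuccinate into arginine and fumarate, measured 13.15, 12.57 and 12.69 in Nrf2-null mice, 12.68, 11.93 and 12.42 in wild-type mice, 12.61, 11.86 and 12.17 in Keap1-KD mice and 12.95, 11.70 and 12.08 in Keap1-HKO mice (log2 intensity). Replicate 1 was the highest and replicate 2 the lowest in each genotype, and every pair of genotypes overlapped. Its log2 difference from wild-type mice was 0.46 in Nrf2-null mice (95% interval −0.29 to 1.20, adjusted p = 0.823), −0.13 in Keap1-KD mice (adjusted p = 1) and −0.10 in Keap1-HKO mice (95% interval −0.85 to 0.64, adjusted p = 0.862). Between Keap1-HKO and Nrf2-null mice, whose same-numbered arrays deviated together, the log2 difference was −0.56 (adjusted p = 0.386). It was called with the replicate number as a block (adjusted p = 0.049), when Asl and Cyp2f2 made 2 of 8 genes against 11.8% of all genes.

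Arg1 (chr10:24915207-24927470), the arginase that releases urea, was among the steadier genes, with an SD within genotypes of 0.159. It measured 14.81, 14.64 and 14.52 in Nrf2-null mice, 14.72, 14.79 and 14.68 in wild-type mice, 14.58, 14.73 and 14.51 in Keap1-KD mice and 14.81, 14.31 and 14.53 in Keap1-HKO mice (log2 intensity). All genotypes overlapped, and the mean differed from that of wild-type mice by −4.67% ± 5.63 in Nrf2-null mice, −8.01% ± 4.21 in Keap1-KD mice and −10.9% ± 9.04 in Keap1-HKO mice (SEM, n = 3). The 95% interval of the log2 difference in Keap1-HKO mice was −0.51 to 0.15 (adjusted p = 0.484).

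Hal (chr10:93488768-93516761), histidase, begins histidine breakdown. It measured 12.50, 12.57 and 12.44 in Nrf2-null mice, 12.17, 11.90 and 12.27 in wild-type mice, 12.52, 12.01 and 12.36 in Keap1-KD mice and 12.41, 11.56 and 12.18 in Keap1-HKO mice (log2 intensity). All 3 Nrf2-null arrays lay above the 3 wild-type arrays, a difference of 30.3% ± 3.28 (SEM, n = 3) or 0.39 on the log2 scale (standard error 0.22, 95% interval −0.097 to 0.88, adjusted p = 0.823). In Keap1-HKO mice the difference from wild-type mice was −0.063 (95% interval −0.55 to 0.42, adjusted p = 0.869).

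Pck1 (chr2:173153073-173159274), the cytosolic phosphoenolpyruvate carboxykinase of gluconeogenesis, had its highest mean in Nrf2-null mice. Its brightest probe set measured 14.18, 14.73 and 14.26 in Nrf2-null mice, 13.89, 13.66 and 13.97 in wild-type mice, 13.74, 14.37 and 13.82 in Keap1-KD mice and 13.52, 14.29 and 14.13 in Keap1-HKO mice (log2 intensity). All 3 Nrf2-null arrays lay above the 3 wild-type arrays, while the Keap1-KD and Keap1-HKO arrays overlapped with both. Pck1 mRNA was 47.7% ± 18.4 (SEM, n = 3) above the wild-type mean in Nrf2-null mice, a log2 difference of 0.55 (standard error 0.25, 95% interval 0.00038 to 1.10, adjusted p = 0.714), which did not pass the test. A dimmer Pck1 probe set, with a wild-type mean intensity of 166, measured 8.33, 8.49 and 8.13 in Nrf2-null mice and between 6.91 and 7.98 on the other 9 arrays. Its log2 difference was 0.95 in Nrf2-null mice (standard error 0.26, adjusted p = 0.294) and 0.083 in Keap1-HKO mice (adjusted p = 0.852). In Nrf2-null mice arrays did not overlap with wild-type arrays for 2 of 8 genes, Hal and Pck1, against 20.8% of all genes.

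The bases before the RefSeq start of Pck1 (GRCm38.p6, chr2:173152823-173153072, plus strand) are shown because this promoter is the only one of 5 available for these genes with a cyclic AMP response element TNACGTCA, searched on both strands. The match, in capitals, lies 93 to 86 bases before the start, and 2.93% of all 32851 windows hold one. The antioxidant response element core had 0 matches in the windows of Otc, Ass1, Hal, Cyp2f2 and Pck1, while 12.4% of all windows and 4 of 8 windows of the Nrf2 targets held one.
Pck1 promoter: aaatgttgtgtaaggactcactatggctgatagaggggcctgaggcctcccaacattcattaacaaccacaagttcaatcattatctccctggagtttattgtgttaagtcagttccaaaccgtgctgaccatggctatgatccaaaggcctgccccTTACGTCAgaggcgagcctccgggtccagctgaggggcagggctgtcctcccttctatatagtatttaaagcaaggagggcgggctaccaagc

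**Figure D2:**
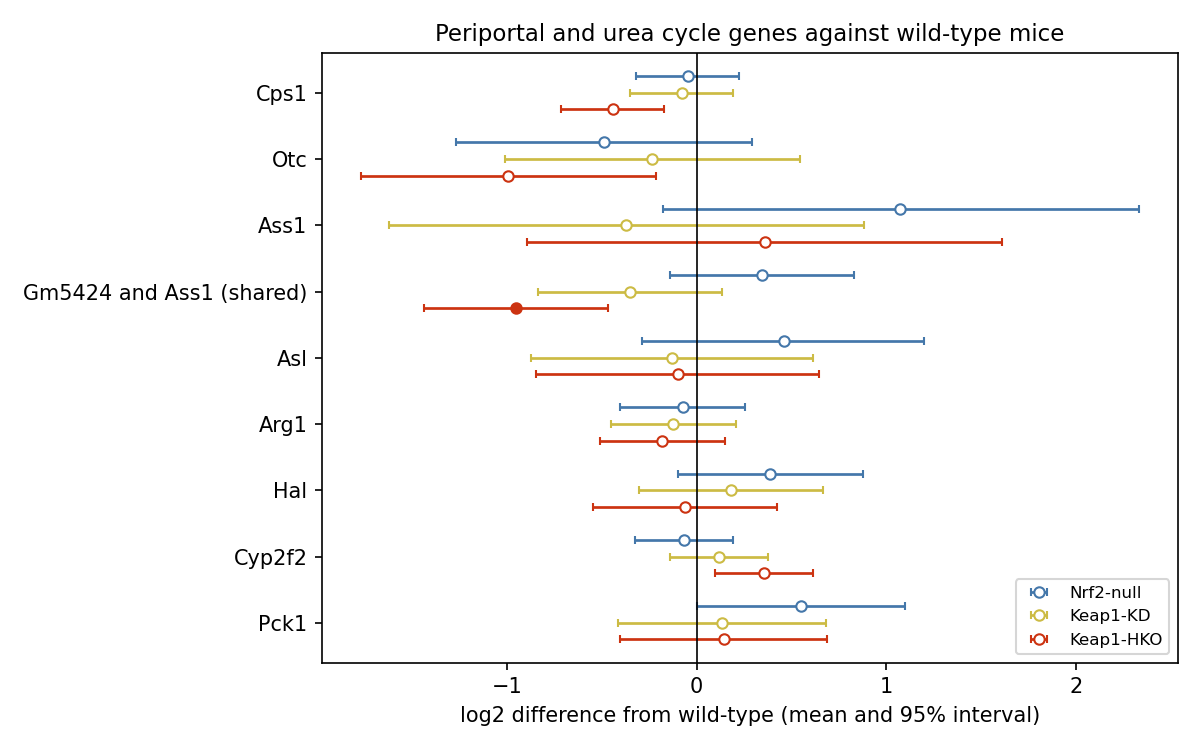
Log2 difference from wild-type mice (x axis) for each gene (y axis) in the 3 mutant genotypes, by colour; points are means of 3 mice per genotype, lines are 95% intervals, and a filled point marks an adjusted p under 0.05. The shared probe set in Keap1-HKO mice is the single filled point, at −0.95, and the Keap1-HKO intervals of Cps1, Otc and Cyp2f2 leave out 0.

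Cyp2f2, a periportal P450 enzyme, was the gene of the list whose means were in ascending order. It lies at chr7:27119955-27133660 (GRCm38.p6). Its log2 intensities were 14.21, 14.21 and 14.03 in Nrf2-null mice, 14.17, 14.24 and 14.24 in wild-type mice, 14.47, 14.22 and 14.32 in Keap1-KD mice and 14.65, 14.49 and 14.58 in Keap1-HKO mice. The 3 Keap1-HKO arrays lay above all other arrays, and the Nrf2-null and wild-type arrays overlapped. Relative to wild-type mice, Cyp2f2 mRNA differed by −4.29% ± 3.93 in Nrf2-null mice, 8.79% ± 5.51 in Keap1-KD mice and 28.1% ± 4.09 in Keap1-HKO mice (SEM, n = 3). The slope was 0.14 on the log2 scale per genotype step (standard error 0.037, adjusted p = 0.0425), and Keap1-HKO mice were higher than Nrf2-null mice by 0.42 (standard error 0.12, 95% interval 0.17 to 0.68, adjusted p = 0.0486, 1 of 8 genes against 9.14% of all genes, 2 at an unadjusted p under 0.05 against 22.1%, and 2 by Duncan's test against 14.5%). Against wild-type mice the log2 difference in Keap1-HKO mice was 0.36 (standard error 0.12, 95% interval 0.099 to 0.61, adjusted p = 0.138). Leaving out any 1 of the 12 arrays ended the call against Nrf2-null mice (adjusted p = 0.0577 to 0.177), and leaving out any array but Keap1-HKO replicate 1 ended that of the slope (adjusted p = 0.0513 to 0.147). Without the 3 arrays with pancreas or muscle transcripts the slope was 0.16 and the difference from Nrf2-null mice 0.50 (adjusted p = 0.0503). Cyp2f2 was 1 of 8 genes with group means in ascending order, against 8.23% of all genes, and 0 of 8 were in descending order, against 10.1%.

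The bases before the RefSeq start of Cyp2f2 (GRCm38.p6, chr7:27119705-27119954, plus strand) are shown since it was the gene called by the slope. Neither motif occurs in its window of 300 bases, so the sequence has no capitals. The study searched a far longer upstream stretch and lists a putative antioxidant response element for Cyp2f2 beyond this window. It lists Cyp2f2 among the genes that did not change with Nrf2 activation.
Cyp2f2 promoter: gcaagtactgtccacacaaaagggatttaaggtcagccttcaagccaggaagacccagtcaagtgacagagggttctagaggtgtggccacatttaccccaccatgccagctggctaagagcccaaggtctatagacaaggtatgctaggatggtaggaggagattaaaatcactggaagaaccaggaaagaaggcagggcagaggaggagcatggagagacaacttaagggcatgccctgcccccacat

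Between the ends of the order, 7 of 8 genes had lower means in Keap1-HKO than in Nrf2-null mice, against 55.7% of all genes, with Cyp2f2 the exception. Only Cyp2f2 was called in that comparison, and the other log2 differences ran from −0.71 for Ass1 to −0.11 for Arg1 (adjusted p = 0.0777 to 0.768). With the arrays holding pancreas or muscle transcripts left out, 5 of 8 lay below 0, against 47% of all genes. Keap1-HKO arrays did not overlap with wild-type arrays for 3 of 8 genes, Cps1, Otc and Cyp2f2, against 27.5% of all genes. Between the groups with less Keap1, 0 of 8 genes were called in Keap1-HKO against Keap1-KD mice, against 1.43% of all genes (1 at an unadjusted p under 0.05, against 12.8%, and 2 by Duncan's test, against 9.61%). The largest differences there were −0.76 for Otc (adjusted p = 0.392), 0.73 for Ass1 (adjusted p = 0.563) and −0.36 for Cps1 (adjusted p = 0.225). In the overall F test 0 of 8 genes were called, against 4.83% of all genes (2 at an unadjusted p under 0.05, against 16.5%).

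**Figure D3:**
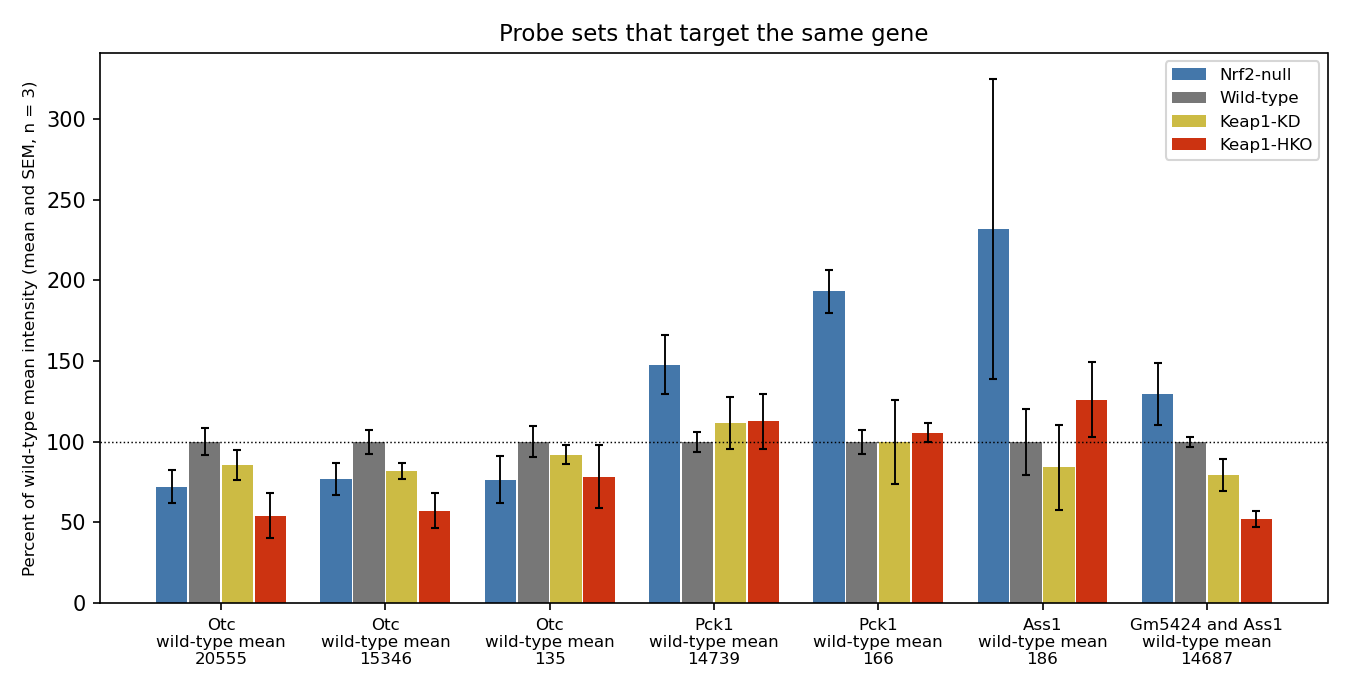
Mean un-logged intensity in percent of the wild-type mean (y axis, bars with SEM, n = 3) for the 3 probe sets of Otc, the 2 of Pck1, that of Ass1 alone and the one that lists Gm5424 and Ass1; each probe set's wild-type mean intensity stands under it. The Otc probe sets share lower Keap1-HKO means, and the shared Ass1 probe set stands at −47.8% relative to wild-type in Keap1-HKO mice, while that of Ass1 alone stands at 26.1%.

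Calls were also counted among genes that work around the urea cycle. Of 10 urea cycle partners, among them genes that bring ammonia, aspartate and ornithine to the cycle, 9 were measured. In Keap1-HKO against wild-type mice 2 fell and 0 rose, against 1.84% lower and 2.1% higher of all genes. The median log2 difference of the 9 was −0.28, against −0.014 over all genes. Slc25a15, the mitochondrial ornithine carrier, measured 13.32, 13.42 and 13.43 in wild-type mice and 12.35, 13.00 and 12.77 in Keap1-HKO mice, without overlap (log2 difference −0.68, standard error 0.16, adjusted p = 0.0453). Slc25a13, the citrin that exports aspartate from mitochondria, measured 10.68, 10.76 and 10.73 in wild-type mice and 9.73, 9.93 and 10.28 in Keap1-HKO mice (log2 difference −0.75, standard error 0.17, adjusted p = 0.0389). In the cytosol, Got1, an aspartate aminotransferase, lay at −0.60 (adjusted p = 0.161). Glud1, the glutamate dehydrogenase that frees ammonia, lay at −0.45 (adjusted p = 0.214). Leaving out 1 array ended the call of Slc25a15 unless it was Keap1-HKO replicate 1 or 2 (adjusted p = 0.0534 to 0.17), and that of Slc25a13 unless it was Nrf2-null replicate 1 or Keap1-HKO replicate 3 (adjusted p = 0.0509 to 0.144). Without the 3 arrays with pancreas or muscle transcripts the differences were −1.02 for Slc25a15 and −0.98 for Slc25a13. In limma's test 0 partners were called in Keap1-KD and 0 in Nrf2-null mice (0 and 0 at an unadjusted p under 0.05).

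Of 20 further enzymes of amino acid breakdown 16 were measured. In Keap1-HKO against wild-type mice 1 fell, against 1.84% of all genes. It was Kynu, kynureninase of tryptophan breakdown (log2 difference −0.62, standard error 0.15, adjusted p = 0.0453). That call ended without any 1 array but Keap1-HKO replicate 3 (adjusted p = 0.0557 to 0.197). Along the order 4 of the 16 fell and 0 rose, against 4.7% lower and 4.51% higher of all genes. They were Tat, tyrosine aminotransferase (slope −0.40 per genotype step, adjusted p = 0.0246), Agxt, alanine-glyoxylate aminotransferase (−0.30, adjusted p = 0.0464), Kynu (−0.21, adjusted p = 0.0195) and Amdhd1, which follows Hal and urocanase in histidine breakdown (−0.20, adjusted p = 0.0243). Kynu and Amdhd1 did not fall at each step, and Agxt fell mostly at the last. Mean log2 intensities from Nrf2-null to Keap1-HKO mice were 11.89, 11.87, 11.77 and 10.94 for Agxt. They were 10.69, 10.73, 10.4 and 10.11 for Kynu, and 12, 11.74, 11.75 and 11.32 for Amdhd1. The log2 intensity of Tat was 13.41, 12.94 and 13.13 in Nrf2-null mice, 12.63, 12.19 and 12.52 in wild-type mice, 12.34, 12.57 and 11.85 in Keap1-KD mice and 12.50, 11.30 and 11.87 in Keap1-HKO mice. Its Nrf2-null arrays lay above all others, and those of the other genotypes overlapped. The slope of Agxt was no longer called without 9 of the 12 arrays, all but wild-type replicate 1, Keap1-KD replicate 2 and Keap1-HKO replicate 1 (adjusted p = 0.0511 to 0.127). That of Tat was lost without Nrf2-null replicate 1 or 3 or Keap1-HKO replicate 2 or 3, that of Amdhd1 without Nrf2-null replicate 1 or 2 (adjusted p = 0.0593 and 0.0754) and that of Kynu without Nrf2-null replicate 2 (adjusted p = 0.0735). Without the 3 arrays with pancreas or muscle transcripts the slopes were −0.25 for Kynu and −0.18 for Amdhd1, while those of Tat (−0.23, adjusted p = 0.0877) and Agxt (−0.22, adjusted p = 0.0658) missed the threshold. In gluconeogenesis, 5 of 7 genes were measured and 1 fell along the order, Fbp1, fructose-1,6-bisphosphatase (slope −0.14, adjusted p = 0.0252), against the same 4.7%, though not without those 3 arrays (−0.12, adjusted p = 0.0529) or without any 1 of 7 arrays, which were all 3 Nrf2-null arrays, replicate 1 or 3 of wild-type, replicate 3 of Keap1-KD or replicate 2 of Keap1-HKO mice (adjusted p = 0.0516 to 0.079). G6pc, glucose-6-phosphatase, had a log2 difference of 1.21 in Nrf2-null mice (standard error 0.52, adjusted p = 0.685), with all 3 arrays above the wild-type arrays.

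Among 11 other periportal genes, all measured, 1 rose in Keap1-HKO mice and 0 fell, against 2.1% higher and 1.84% lower of all genes. Hsd17b6, a hydroxysteroid dehydrogenase, measured 9.88, 9.23 and 8.79 in wild-type mice, 11.26, 10.16 and 10.65 in Keap1-KD mice and 11.72, 11.33 and 11.89 in Keap1-HKO mice (log2 intensity). Its log2 difference was 2.35 in Keap1-HKO mice (standard error 0.36, adjusted p = 0.00564), that of Keap1-KD mice was 1.39 (adjusted p = 0.784), and its slope was 0.88 per genotype step (adjusted p = 0.00105). In Nrf2-null mice it measured 9.75, 8.92 and 8.88, which overlapped with wild-type mice (log2 difference −0.12, adjusted p = 0.919). Along the order Apof, an apolipoprotein, fell by 0.19 on the log2 scale per genotype step (adjusted p = 0.0252), and Igf1, the liver's endocrine growth factor, fell by 0.18 (adjusted p = 0.0381), so 2 of 11 fell and 1 rose, against 4.7% and 4.51% of all genes. Hsd17b6 was called, in Keap1-HKO against wild-type mice and by its slope, without each of the 12 arrays in turn. The slope of Apof was lost without Nrf2-null replicate 1 or 3, wild-type replicate 3 or Keap1-HKO replicate 2 (adjusted p = 0.0518 to 0.0884), and that of Igf1 without any 1 array but Keap1-KD replicate 1 and Keap1-HKO replicate 1 (adjusted p = 0.0597 to 0.108). Without the 3 arrays with pancreas or muscle transcripts the slopes were 0.90 for Hsd17b6, −0.19 for Apof and −0.099 for Igf1 (adjusted p = 0.19). Together the 4 lists of related genes, 41 genes in all, held 3 lower and 1 higher in Keap1-HKO mice, against 1.84% lower and 2.10% higher of all genes. With 1 array left out at a time the lower count was 0 to 2, so leaving out any 1 of the 12 ended at least 1 of those calls.

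At the other end of the lobule, 12 of 14 pericentral genes were measured. In Nrf2-null against wild-type mice 0 were called, against 0.41% of all genes (4 at an unadjusted p under 0.05, all lower, against 6.92%). There 11 of 12 lay below 0, against 47.3% of all genes. The median log2 difference was −0.43, against 0.0196 over all genes. In Keap1-HKO mice 1 fell against wild-type mice, against 1.84% of all genes: Cyp7a1, the rate-limiting enzyme of bile acid synthesis. It measured 9.03, 8.51 and 10.03 in wild-type mice, 6.02, 7.23 and 5.11 in Keap1-KD mice and 5.11, 6.97 and 6.23 in Keap1-HKO mice (log2 intensity). Both Keap1 mutants had means under the intensity limit of 100, so their folds are not exact, and with values set no lower than that limit the difference in Keap1-HKO mice was −2.44 (adjusted p = 0.0108, and 0.0291 as measured). The call as measured ended without any 1 wild-type array, without Keap1-KD replicate 1 and without Keap1-HKO replicate 1 or 3 (adjusted p = 0.0509 to 0.126). The slope over the order was positive for Cyp1a2, a P450 enzyme (0.24, adjusted p = 0.0318), and Rhbg, an ammonia transporter (0.40, adjusted p = 0.0372). It was negative for Cyp7a1 (−0.77 with values at that limit or above, adjusted p = 0.00581). These 2 positive and 1 negative slopes of 12 compare with 4.51% and 4.7% of all genes. Neither Cyp1a2 nor Rhbg rose at each step. Means from Nrf2-null to Keap1-HKO mice were 13.89, 14.05, 13.72 and 14.8 for Cyp1a2, and 6.30, 7.41, 6.95 and 7.77 for Rhbg. The Nrf2-null values of Rhbg, 6.51, 6.57 and 5.81, lay under the intensity limit, so its slope is not exact. The slope of Rhbg was lost without any 1 array but Keap1-KD replicate 2 and Keap1-HKO replicate 3 (adjusted p = 0.0536 to 0.127). That of Cyp1a2 was lost without Nrf2-null replicate 2 or 3, any 1 wild-type array, Keap1-KD replicate 2 or Keap1-HKO replicate 2 (adjusted p = 0.051 to 0.116), and that of Cyp7a1 was called without each array in turn. Of 12 measured regulators of these programs, 1 fell and 0 rose along the order, against the same 4.7% and 4.51%. It was the insulin receptor substrate Irs1 (slope −0.34, adjusted p = 0.0418), which was not called without the 3 arrays with pancreas or muscle transcripts (adjusted p = 0.0608) or without any 1 array but Nrf2-null replicate 2 and Keap1-HKO replicate 3 (adjusted p = 0.0527 to 0.12). Among the regulators 0 were called by limma in any of the 3 mutant genotypes against wild-type mice (1, 0 and 1, in order, at an unadjusted p under 0.05). A list's counts are descriptions here, and no test set one list against another.

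**Figure D4:**
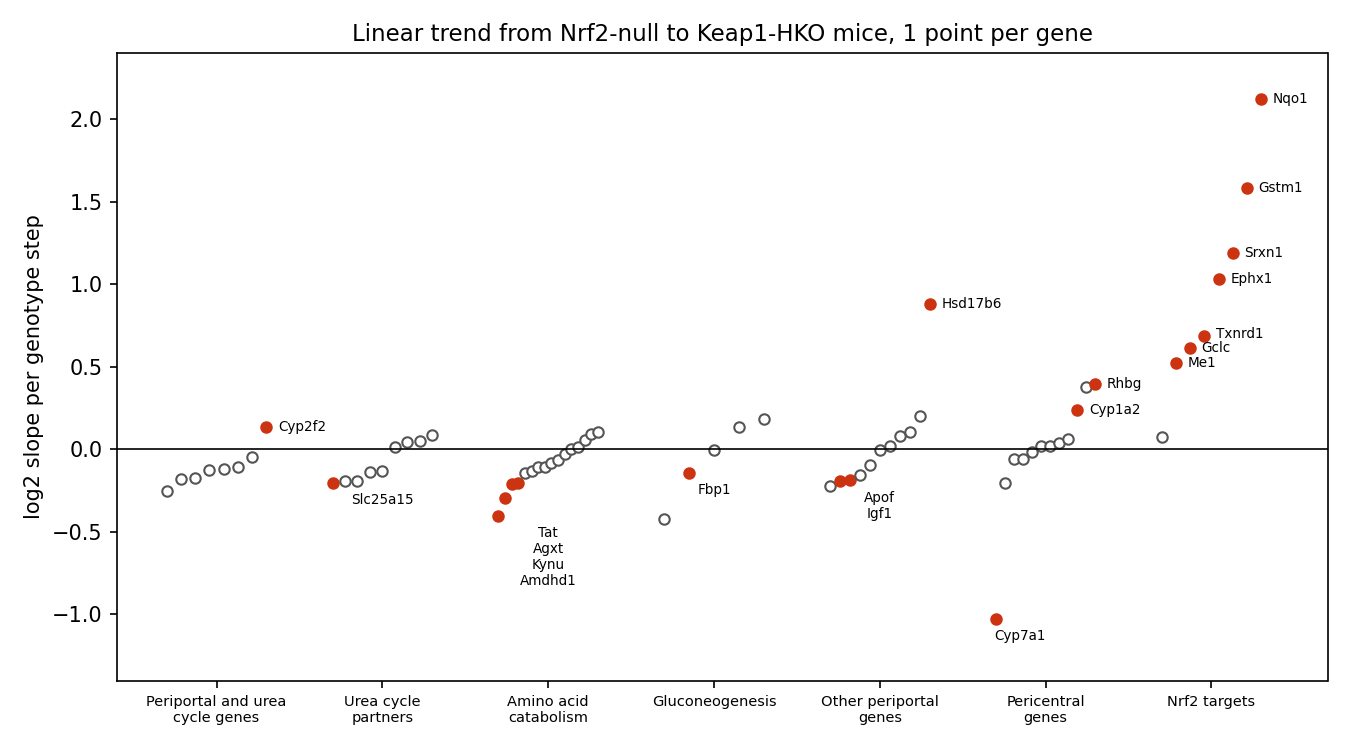
Log2 slope per genotype step from Nrf2-null to Keap1-HKO mice (y axis) of each measured gene, grouped by list (x axis); 1 point is 1 gene, and filled, named points have an adjusted p under 0.05. Cyp2f2, at 0.14, is the filled point among the periportal and urea cycle genes, while the Nrf2 targets reach 2.12 for Nqo1.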

How the data were processed

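Total liver RNA of 12 mice, 3 per genotype, was hybridised to 1 array each. Per the labels and methods, the authors normalized the arrays with gcRMA, deposited log2 intensities and left out probe sets that exceeded an intensity of 100 in no group. From these log2 values, each gene was read from the single-symbol probe set with the highest mean. One limma fit over 4 genotypes (limma 3.58.1, R 4.3.3) gave the differences, the F test and a linear slope with weights −3, −1, 1 and 3, and p was adjusted by the Benjamini-Hochberg method over 5856 genes. The fit was tested on simulated data. Duncan's multiple range test, named in the study's methods, other scalings and filters, array weights, a replicate block and fits without 1 or several arrays were alternatives. From each related list, up to 4 genes with the lowest adjusted p were named. Genes and lists were chosen with earlier results of these data known. Promoters came from RefSeq (GRCm38.p6). The number of arrays limits the precision. Mice were labelled as biological replicates, and what a replicate number marks was not given in the sources used here. Deviations of same-numbered arrays from their group means correlated at 0.105 to 0.787 in all pairs of mutant genotypes. Wild-type replicates 1 and 2 correlated with same-numbered mutant arrays at 0.164 to 0.394, and wild-type replicate 3 at −0.157 to 0.0722. The main fit left the replicate number out, and the replicate block was an alternative.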

Additional observations from a re-analysis of the deposited data

How the results depend on the processing

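Of 107 values of single genes or probe sets, refitted 2683 times under 26 alternatives, 2288 refits kept direction and side of the threshold, 318 lost a call, 41 gained one and 36 reversed; of 300 refits of 12 counts over a list, 78 moved by more than 1.5 times. The cause was not tested. The 8 genes and the added probe sets of Pck1 and Ass1 entered whether called or not, and other named genes only where called. Only a called value could lose a call, so the share of calls lost is higher than these totals show. Without the 3 arrays with pancreas or muscle transcripts, these log2 differences reversed: Cps1 in Nrf2-null against wild-type mice to 0.0204; in Keap1-HKO against wild-type mice Asl to 0.403, Arg1 to 0.113, Hal to 0.192 and Pck1 to −0.407; in Keap1-HKO against Keap1-KD mice Arg1 to 0.205, Hal to 0.116 and Pck1 to −0.453; in Keap1-HKO against Nrf2-null mice Asl to 0.15 and Arg1 to 0.156; and the slopes of Asl to 0.0112 and Arg1 to 0.0375. Array quality weights turned Ass1 to 0.148 and Pck1 to −0.00843 in Keap1-KD against wild-type mice, and Asl to −0.388 in Keap1-HKO against Keap1-KD mice, where a second quantile normalization turned Pck1 to −0.0359 and leaving out the 2 arrays that stood apart turned Asl to −0.325. With 1 array left out at a time, values that crossed 0 ran, against wild-type mice, from −0.112 to 0.0204 for Cps1 in Nrf2-null mice, in Keap1-KD mice from −0.737 to 0.194 for Ass1, −0.338 to 0.0439 for Asl and −0.0615 to 0.252 for Pck1, and in Keap1-HKO mice from −0.456 to 0.171 for Asl, −0.242 to 0.181 for Hal and −0.0131 to 0.372 for Pck1. Against Keap1-KD mice they ran from −0.325 to 0.302 for Asl, −0.189 to 0.061 for Arg1 and −0.148 to 0.237 for Pck1, and against Nrf2-null mice from −0.239 to 0.0116 for Arg1. The count of the 8 genes called went from 0 to 2 in Nrf2-null against wild-type mice with array weights, when 23.5% of all genes were called. In Keap1-HKO against wild-type mice it went from 0 to 2 with a robust and trended variance prior (3.98% of all genes), with Duncan's test on log2 or un-logged values (12% and 11.5%) and without the 3 arrays with pancreas or muscle transcripts (38.5%), and to 1 with the replicate block (6.51%). In Keap1-HKO against Keap1-KD mice it went from 0 to 2 with Duncan's test on either scale (9.61% and 8.79% of all genes) and without those 3 arrays (41.3%). In Keap1-HKO against Nrf2-null mice it went from 1 to 0 with the mean of a gene's probe sets, median centring, a second quantile normalization or only the groups compared, to 2 with the robust prior (9.36% of all genes), the replicate block (11.8%), Duncan's test on either scale (14.5% and 13.7%) and without those 3 arrays (31.4%), and was 0 with any 1 array left out. For the slope it went from 1 to 0 with median centring or a second quantile normalization, to 2 with the robust prior (9.46% of all genes), array weights (15.8%) or the replicate block (12.4%), to 3 without those 3 arrays (29.5%), and was 0 to 1 with 1 array left out. In the F test it went from 0 to 2 with the robust prior (5.12% of all genes), 3 with array weights (40.1%) and 1 without those 3 arrays (14.6%). The 3 related genes lower in Keap1-HKO mice became 5 with the robust prior or array weights, 0 with only the groups compared, 9 with Duncan's test on either scale, 8 without the 2 arrays that stood apart, 6 without the 3 others and 0 to 2 with 1 array left out. The 8 related genes with falling slopes became 2 to 9 with 1 array left out, and the 1 with a rising slope became 3 without the 2 arrays that stood apart and 1 to 2 with 1 array left out. With the replicate block, limma called Otc in Keap1-HKO against wild-type mice (adjusted p = 0.0253) and the slope of Asl (adjusted p = 0.0443). Same-numbered arrays of wild-type and mutant mice deviated together for replicates 1 and 2 but not for replicate 3. How far the block applies to wild-type mice was not tested.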

Other observations

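The order of replicate numbers recurred in several of these genes. Replicate 1 was the highest array in all 4 genotypes for Ass1 and Asl, which held for 11.4% of all 5856 genes. Replicate 2 was the highest in all 4 genotypes for Otc, as for 5.4% of all genes, and replicate 1 was the lowest for Otc, as for 9.85%. Replicate 2 was the lowest in all 4 genotypes for Asl, as for 6.34% of all genes. Replicate 3 was the highest in all genotypes for 0.512% of all genes and the lowest for 0.905%, and for none of the 8 periportal and urea cycle genes measured. What the replicate numbers stand for was not given in the sources used here.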
